A study of Ovis aries with 2 samples.

Results

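The genes described here are those that make and use the thiol antioxidants glutathione and thioredoxin, with the peroxidases and dismutases that work beside them. Members were all symbols of the count tables that begin with GPX, PRDX, TXN, GSTA, GSTM, GSTO, GSTP, GSTT or GCL, with SOD1, SOD2, SOD3, CAT and GSR. The rule used no measured value and matched 37 of 27054 genes, of which 16418 have a symbol. By family they were 6 peroxiredoxins, 5 glutathione peroxidases, 5 glutathione transferases of the GSTA, GSTM, GSTO and GSTT classes, 2 subunits of glutamate-cysteine ligase, 7 TXNDC, 3 TXNL and 3 TXNRD genes, and TXN, TXN2, TXNIP, CAT, SOD1 and SOD3. GPX4, SOD2, GSR, TXNDC2 and every GSTP gene have no matching symbol in the tables and are not analysed here.

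Glutathione is a small peptide made in sequence by glutamate-cysteine ligase and glutathione synthetase, and glutathione transferases attach it to reactive compounds. Thioredoxin is a small protein that reduces disulfides and is itself reduced by thioredoxin reductase with NADPH, and peroxiredoxins use it to remove peroxides. In the testis, germ cells are exposed to peroxides while haploid spermatids replace their histones and oxidise sulfhydryl groups of the sperm proteins. Some members of these families, such as TXNDC8, TXNRD3 and PRDX4, have known roles in spermatids.

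Testis of sheep at 8 months was profiled in 2 droplet libraries, 1 labelled control and 1 labelled ZEA0.75. ZEA is the usual abbreviation of zearalenone, an oestrogenic fungal toxin; the labels neither spell it out nor give the unit of 0.75 or the route of exposure. The comparison of the libraries asks what the exposure does to the testis. Each group has 1 library, so no difference between them has a replicate check, no test was made, and animal, preparation and treatment cannot be told apart. The version of Cell Ranger, which made the count tables, also differed between the groups and cannot be told apart from them.

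After filtering, 6811 control cells with a median of 4121 unique molecular identifiers (UMIs, each standing for 1 captured RNA molecule) and 8804 ZEA cells with a median of 1405.5 were kept. Levels are the UMIs of a gene summed over the cells of a class and scaled to the class total (CPM); they count tagged 3' ends and are not divided by gene length. Intervals are 95% and cover counting error only. Cells were clustered anew and a cluster was called "like" a cell type only from marker genes, so names are rebuilt ones. The late spermatocyte-like class held 1034 control and 4 ZEA cells, and the Sertoli-like class 112 and 1. The endothelial-like, myoid or smooth muscle-like, perivascular-like, stromal fibroblast-like and B cell-like classes held 182 to 2252 ZEA cells and 1 to 11 control cells. Round spermatid-like cells (674 and 695), elongating spermatid-like cells (2041 and 1027) and leukocyte-like cells (44 and 152) were found in both libraries. Of the 37 members, 2 were among the 2000 variable genes used for clustering (GSTA1 and TXNIP), so comparisons between classes are descriptions.

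The module was dominated by few transcripts, with GSTM3 leading in the control library and TXNIP and GSTM3 level within counting error in the ZEA library. GSTM3, a glutathione transferase of the mu class, gave 54.6% of the 375291 member UMIs of the control library and 26.2% of the 130738 of the ZEA library. TXNIP, which binds and inhibits thioredoxin, had 34429 UMIs in the ZEA library, beside 34194 of GSTM3. Their levels there were 1555 CPM (1539 to 1571) and 1544 CPM (1528 to 1561), with intervals that overlapped. In the whole control library TXNIP had 326 UMIs (6.46 CPM). GSTM3, PRDX5, TXNDC8, GSTT4 and TXNL1 together made up 86.2% of control member UMIs, and the leading 5 members of the ZEA library, with TXNIP in place of GSTT4, made up 71.7%. All members together summed to 7435 CPM among control cells and to 5905 CPM among ZEA cells. These whole-library values mix different cell types, so levels are given by class from here on.

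Members at or near 0 were SOD1 and GPX2, with 0 UMIs in kept cells of both libraries, and GPX3 and GPX5, with fewer than 10 UMIs in both together. SOD1 is the cytosolic superoxide dismutase and is made by nearly all cells; here it is only listed at 0. For a count of 0 the upper limit of the interval was 0.0731 CPM over all control cells and 0.167 CPM over all ZEA cells. SOD3, the secreted dismutase, and GPX7, a peroxidase of the endoplasmic reticulum, had 1 UMI each in the control library. The other 33 members, those with at least 10 UMIs, carry the results.

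Across the germ stages of the control library the module changed its makeup at the step from meiosis to the round spermatid. In late spermatocyte-like cells the leading members were GSTM3 and PRDX5, with TXNL1 next, and TXNDC8 and GSTT4 were low. In round spermatid-like cells TXNDC8 and GSTT4 were the leading members after GSTM3, and most other members were lower. Of the 25 members with at least 50 UMIs in these classes together, 4 were over 2-fold higher in round spermatid-like cells, against 27.4% of all 8791 genes compared in the same way, and 11 were over 2-fold lower, against 32.8%. Their median log2 ratio was -0.94, and that of all genes was -0.42.

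The 4 members that were higher include a pair with nearly the same course. GSTT4, a theta class glutathione transferase, was at 74.9 CPM (70.0 to 80.2) in late spermatocyte-like cells and 832 CPM (813 to 852) in round spermatid-like cells, a log2 ratio of 3.47 (3.37 to 3.58). TXNDC8, a thioredoxin of the testis also called spermatid thioredoxin, was at 77.6 CPM (72.5 to 82.9) and 800 CPM (781 to 820), a log2 ratio of 3.37 (3.27 to 3.47). Both then stayed close to these levels, at 812 and 863 CPM in elongating spermatid-like cells. GSTO2, an omega class transferase that reduces dehydroascorbate, was at 18.4, 98.8 and 284 CPM in the 3 successive classes. PRDX4, the peroxiredoxin of the secretory pathway, was at 71.5, 201 and 438 CPM. Of these 3 classes, elongating spermatid-like cells thus had the highest GSTO2 and PRDX4, where GSTT4 and TXNDC8 were level.

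The members that were lower in round spermatid-like cells hold the core of the thioredoxin system. TXNRD1, the cytosolic thioredoxin reductase, was at 111 CPM (105 to 117) in late spermatocyte-like and 11.7 CPM (9.47 to 14.2) in round spermatid-like cells, a log2 ratio of -3.25 (-3.56 to -2.95). TXN, thioredoxin itself, was at 20.2 and 2.83 CPM, a log2 ratio of -2.84 (-3.51 to -2.23). Germ cells held little TXN at any stage, with the highest control level of the named germ classes in late spermatocyte-like cells. TXNRD3, the reductase that acts on both thioredoxin and glutathione in the testis, was lower by less, from 63.3 to 33.0 CPM, a log2 ratio of -0.94 (-1.15 to -0.74). TXN2, the mitochondrial thioredoxin, was at 27.4 and 30.6 CPM, and its interval for the log2 ratio included 0 (-0.09 to 0.40).

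Among peroxide-removing members, PRDX1, a cytosolic peroxiredoxin, was at 325, 102 and 25.3 CPM in late spermatocyte-like, round and elongating spermatid-like cells, with log2 ratios of -1.67 and -2.01 for the 2 steps. CAT, catalase of the peroxisome, was at 38.5, 8.83 and 4.92 CPM. PRDX5, a peroxiredoxin of mitochondria, peroxisomes and cytosol, was at 974, 545 and 503 CPM, so that it stayed the most abundant peroxiredoxin of round and elongating spermatid-like cells. PRDX6, which has a single reactive cysteine and uses glutathione, was at 24.7, 18.2 and 23.1 CPM and moved by less than 2-fold at either step. PRDX3, the mitochondrial peroxiredoxin, had at most 1 UMI in each of these 3 classes and a level of at most 0.118 CPM.

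GSTM3 was the most abundant member in every named germ class, at 6180.1, 3901 and 2854 CPM, log2 ratios of -0.66 (-0.68 to -0.64) and -0.45 (-0.47 to -0.43). GCLM, the modifier subunit of glutamate-cysteine ligase, was at 27.3, 13.5 and 6.67 CPM. GCLC, the catalytic subunit that carries out the reaction, had 3, 0 and 4 UMIs in these classes, a level of at most 0.264 CPM. Transcripts of the modifier subunit were thus found in late germ cells with almost none of the catalytic subunit. Other members that were over 2-fold lower in round spermatid-like cells were TXNIP, TXNL4B, TXNDC15, TXNDC16, PRDX2 and TXNDC17, with log2 ratios from -4.92 to -1.01. TXNL1, a thioredoxin-like protein bound to the proteasome, was equal within counting error at 622 and 619 CPM.

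**Figure D1:**
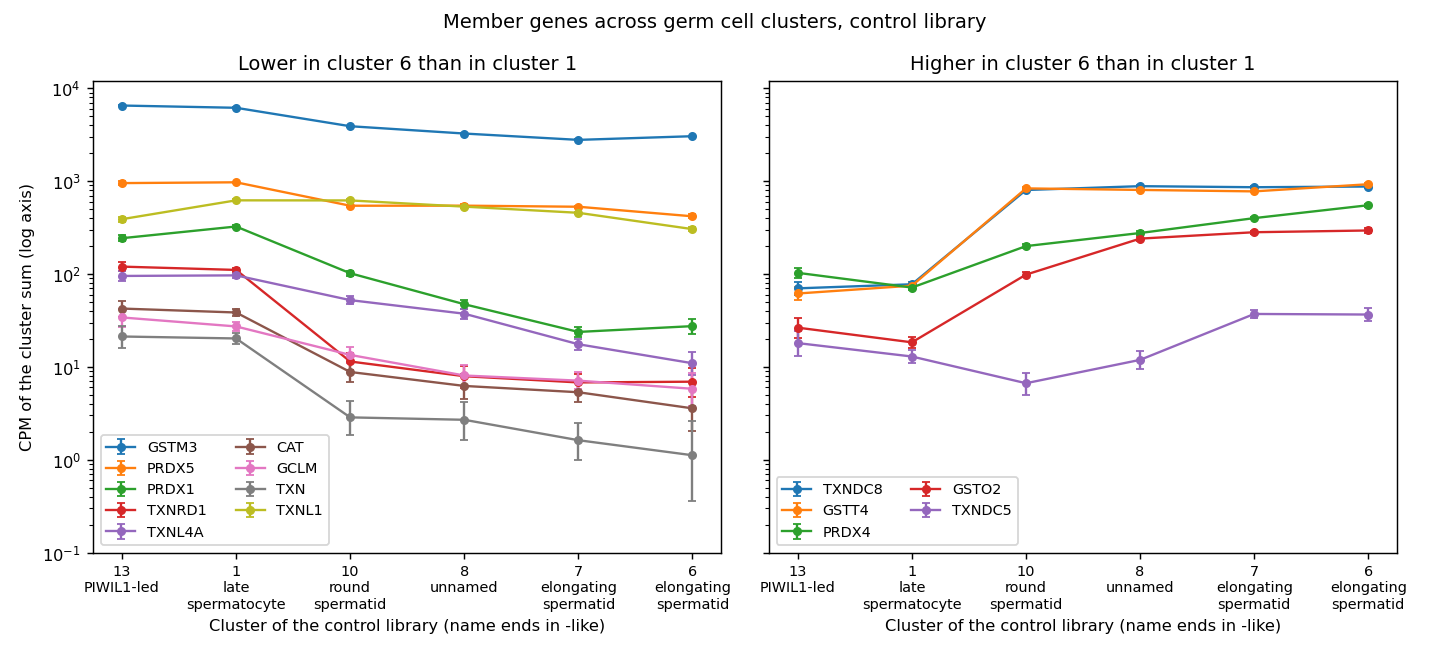
Levels of 14 members in 6 clusters of the control library, in CPM of the cluster sum on a log axis, with 95% Poisson intervals as bars; clusters run from the PIWIL1-led cluster through late spermatocyte-like and round spermatid-like to elongating spermatid-like clusters. TXNDC8 and GSTT4 step up between clusters 1 and 10, PRDX4 and GSTO2 go on to higher levels, and TXNRD1, CAT and TXN step down.

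The step from round to elongating spermatid-like cells could be followed in each library by itself, and TXNDC5, GSTO2 and PRDX4 were the members over 2-fold higher in each. In the control library 3 of 22 members were over 2-fold higher in elongating spermatid-like cells, against 17.3% of all genes, and 6 were over 2-fold lower, against 35.8%. In the ZEA library 3 of 22 were higher, against 17.4%, and 6 were lower, against 42.7%. TXNDC5, a disulfide isomerase of the endoplasmic reticulum, was higher, at 6.71 and 36.8 CPM in the control library (log2 ratio 2.45) and 10.0 and 41.9 CPM in the ZEA library (2.06). GSTO2 (1.53 and 2.07) and PRDX4 (1.13 and 1.40) were the others. TXNDC9, which binds the chaperonin that folds tubulin, was lower, at 154 and 30.4 CPM in the control library and 196 and 35.5 CPM in the ZEA library, log2 ratios of -2.34 and -2.46. PRDX1, TXNL4A, a protein of the spliceosome, TXNDC16 and GCLM were over 2-fold lower in both libraries as well. PRDX2 passed 2-fold in the control library only (-1.17, and -0.80 in the ZEA library), and CAT in the ZEA library only (-2.16, and -0.84 in the control library); these differences between libraries were not tested. Over the 21 members that could be compared in both libraries, 19 had the same sign. The same count was not made for all genes. Their median log2 ratio for this step was -0.58 among control cells and -0.74 among ZEA cells. The agreement in sign is therefore not read as a trait of the members.

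In the control library the median depth of a cell fell from 12427.5 to 7399 UMIs between these classes. In the ZEA library it fell from 6703 to 1766. The part of depth in these ratios was not tested. Under the alternatives given with the limits, 332 stage ratios stayed within their counting interval and 104 moved out of it.

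TXNIP, TXN and the alpha class transferases were low in spermatids and higher in the sum of the somatic classes. The ZEA library had 6 such classes: endothelial-like, myoid or smooth muscle-like, perivascular-like, stromal fibroblast-like, leukocyte-like and B cell-like (3817 cells). Their sum was set against its round and elongating spermatid-like cells (1722 cells). Endothelial-like cells gave most UMIs of the somatic sum, 7630465, and the next class, myoid or smooth muscle-like, gave 1065163. Of 30 members with at least 50 UMIs, 14 were over 2-fold higher in the somatic sum, against 40.4% of all genes, and 11 were over 2-fold lower, against 37.3%, shares close to those of all genes. The members that were higher were TXNIP, GPX8, TXN, GSTA4, GCLC, GSTA1, PRDX3, TXNRD2, PRDX2, TXNDC11, TXNRD1, TXNDC15, PRDX6 and PRDX1. Of these, PRDX1, TXNRD1, TXNDC15, GCLC and GPX8 were below their spermatid level in the somatic class where each was lowest. PRDX1 and TXNRD1 were at 31.7 and 5.45 CPM there, beside 90.1 and 12.8 CPM in spermatids. TXNDC15, GCLC and GPX8 were at 0, beside 3.17, 0.414 and 0.414 CPM. The members that were lower in the sum were GSTT4, TXNDC8, GSTO2, GSTM3, TXN2, TXNDC16, TXNRD3, TXNL1, CAT, PRDX5 and TXNDC9. Of these, GSTM3 and CAT were lower in the sum but not in stromal fibroblast-like cells. They were at 4522 and 16.8 CPM there, beside 2772 and 11.3 CPM in spermatids.

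TXNIP showed the widest gap, 2893 CPM in the somatic sum and 28.7 CPM in spermatids, a log2 ratio of 6.66 (6.46 to 6.86). By class it was at 3817 CPM (3773 to 3861) in endothelial-like, 1693 in stromal fibroblast-like, 1453 in perivascular-like, 769 in leukocyte-like, 764 in myoid or smooth muscle-like and 263 in B cell-like cells. The leukocyte-like and myoid levels did not differ beyond counting error, and the other neighbours in this order did. TXNIP was among the leading genes of the largest endothelial-like cluster and also one of the genes used to cluster. In the control library, leukocyte-like cells were the class with the highest TXNIP, at 543 CPM (386 to 742), and the Sertoli-like class had 1 UMI.

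TXN was present in all 6 somatic classes, from 109 CPM in B cell-like to 613 CPM in stromal fibroblast-like cells. Its log2 ratio of the somatic sum to spermatids was 5.22 (4.90 to 5.56). The mitochondrial members PRDX3 and TXNRD2, which form a chain with mitochondrial thioredoxin, were at 41.7 and 7.95 CPM in the somatic sum. In spermatids PRDX3 was at 1.65 CPM and TXNRD2 had 0 UMIs. For TXNRD2 the interval of the log2 ratio of somatic to spermatid level had a lower limit of 3.94. TXN2, the thioredoxin of that chain, went the other way, at 6.25 CPM in somatic cells and 24.8 CPM in spermatids. GCLC was at 13.7 and 0.414 CPM, and GCLM at 9.82 and 12.3 CPM. In the control library GCLC was highest outside these classes, at 48.1 CPM in the unnamed cluster 14, which is led by genes of early germ cells. GPX8, a peroxidase of the endoplasmic reticulum, was at 26.4 and 0.414 CPM and reached 50.4 CPM in stromal fibroblast-like cells.

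Glutathione transferases of the alpha class, GSTA1 and GSTA4, were highest in Sertoli-like cells. GSTA1, which in the testis is known from Sertoli and Leydig cells, was at 828 CPM (688 to 988) in the 112 Sertoli-like cells of the control library and 457 CPM (404 to 515) in stromal fibroblast-like cells of the ZEA library. In the other 5 somatic classes of the ZEA library it was at 1.40 to 13.6 CPM, and in each spermatid class of either library at most at 2.12 CPM. The related GSTA4, which conjugates lipid aldehydes, was at 303 CPM (221 to 405) in Sertoli-like cells, 175 in stromal fibroblast-like, 159 in myoid or smooth muscle-like, 85.5 in perivascular-like and 56.5 in endothelial-like cells. GSTM3 reached its highest level in Sertoli-like cells, 10406 CPM, and was at 4522 CPM in stromal fibroblast-like cells and 285 to 851 CPM in the other 5 ZEA somatic classes.

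Sertoli cells are the nurse cells of the tubule, and the Sertoli-like name rests on 4 enriched markers, with CITED1 among the leading genes. The Sertoli-like class had the highest summed level of all classes of at least 20 cells, 15454 CPM (14828 to 16099). PRDX6 was at 673 CPM (548 to 819), PRDX2, a cytosolic peroxiredoxin, at 485 CPM (379 to 610), and TXN and PRDX5 at 498 CPM each. In the other named classes of at least 20 cells PRDX6 was at 18.2 to 77.3 CPM. These cells were shallow, with a median of 951.5 UMIs and 9.23% mitochondrial UMIs, and GSTA1 is among the leading genes of their cluster. Their summed level of elongating spermatid markers was 5674 CPM, and TXNDC8 was at 316 CPM there; the part of other cells' RNA in these levels was not tested.

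Spermatid transcripts were found in every somatic class. In the 6 ZEA somatic classes the summed elongating spermatid markers were at 7.21% to 24.5% of their level in the elongating spermatid-like class, lowest in B cell-like and highest in leukocyte-like cells. TXNDC8 was at 9.56% to 36.4% and GSTT4 at 10.1% to 37.4% of their elongating level over the same classes, with leukocyte-like cells again highest. A level of TXNDC8, GSTT4 or GSTO2 in somatic cells is therefore not read as expression there. Other members were above those ranges in some classes. PRDX1 was at 110% to 976% of its elongating level. That level is the lower of its spermatid levels (28.8 CPM, beside 120 in round spermatid-like cells). GSTM3 was at 220% in stromal fibroblast-like and 41.4% in leukocyte-like cells. PRDX4 was at 126% in stromal fibroblast-like, 91.2% in perivascular-like, 51.9% in myoid or smooth muscle-like and 42.2% in endothelial-like cells. PRDX5 was at 45.5% to 74.7% outside B cell-like and endothelial-like cells, and TXNL1 at 58.7% to 84.9% outside B cell-like cells. Doublets could not be removed from the ZEA library, where the caller marked 1 barcode.

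**Figure D2:**
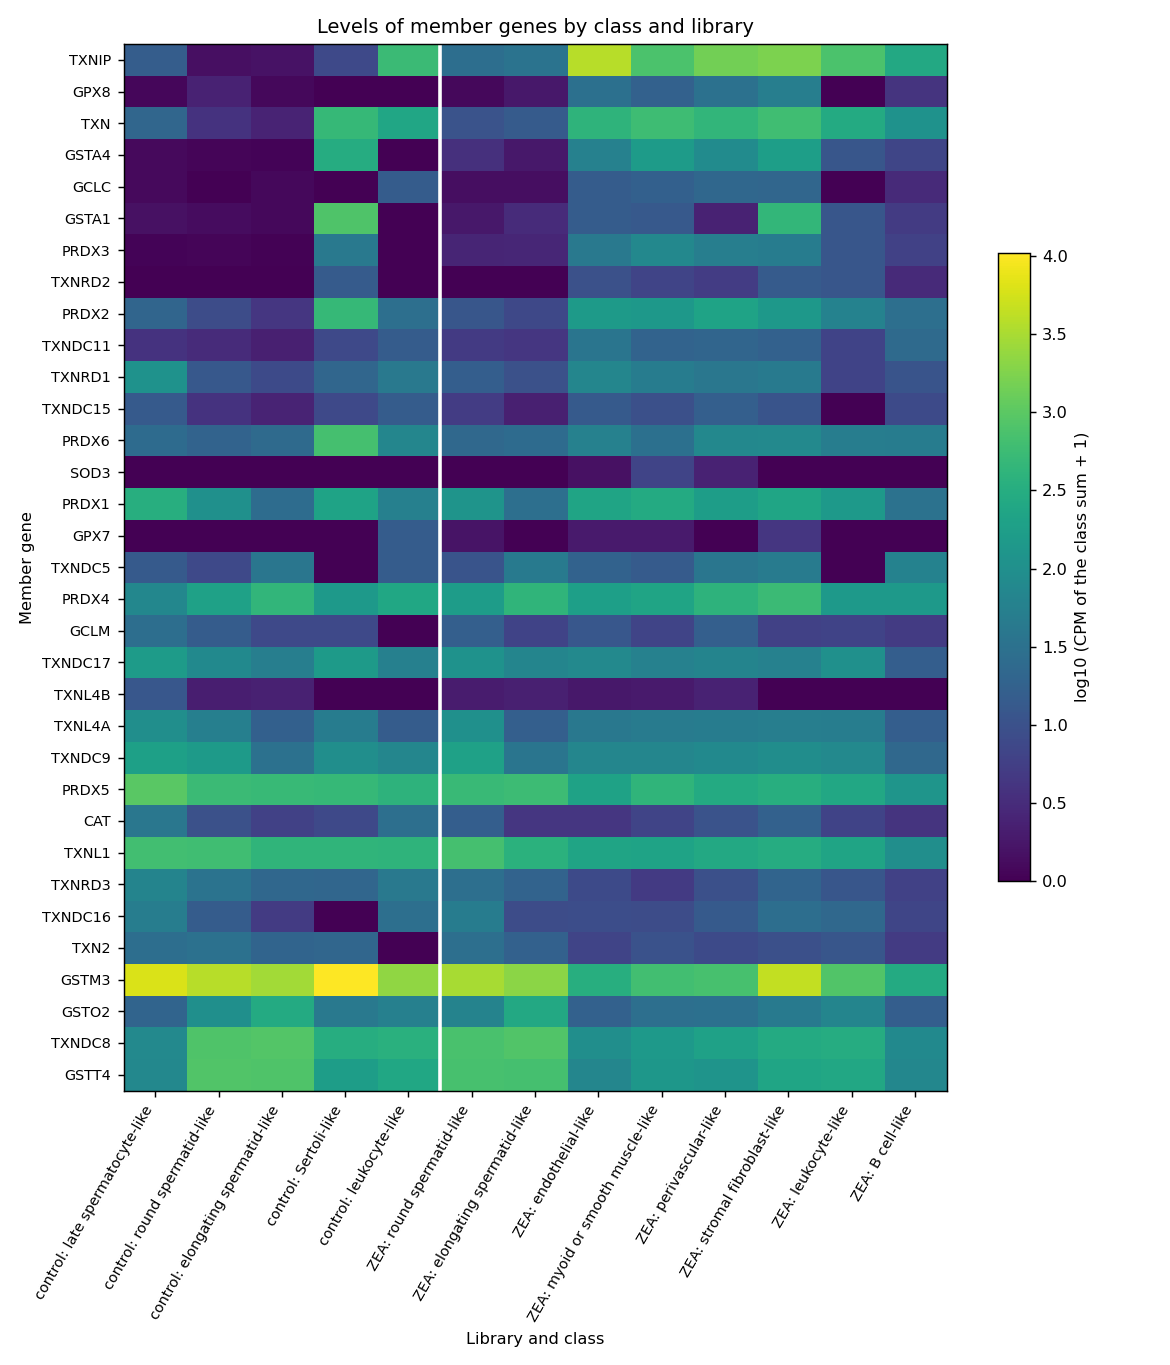
Levels of the 33 members with at least 10 UMIs, as log10 of CPM plus 1, in the named classes of at least 20 cells of the control library (left of the white line) and the ZEA library (right). Members are ordered by their ratio of somatic to spermatid level in the ZEA library, from TXNIP to GSTT4; GSTM3 is brightest in Sertoli-like cells (10406 CPM) and TXNIP in endothelial-like cells (3817 CPM).

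Between the libraries, GSTM3 was lower in ZEA than in control spermatids of both classes, and TXNDC16 was higher in round spermatid-like cells of the ZEA library. To enter, a member needed 50 UMIs over both libraries, a UMI in 5% of the class's cells in either library, and in the library where it was higher, a level of at least 25% of its highest class level there, which keeps out genes that spermatids may hold only as RNA from other cells. A member can so enter through 1 library alone, as TXN2 and TXNRD3 did through the control library in elongating spermatid-like cells. The counts below are therefore read as descriptions. In round spermatid-like cells 16 of 37 members entered and 1 was past 2-fold, against 10.8% of the 5715 genes that entered. In elongating spermatid-like cells 11 entered and 0 were past 2-fold, against 12.9% of 3938 genes. Over the entering members the log2 ratio of ZEA to control had a median of 0.05 in round and -0.11 in elongating spermatid-like cells, and that of all entering genes was 0.16 and 0.11.

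In round spermatid-like cells GSTM3 had 3901 CPM (3860 to 3944) among control and 3118 CPM (3068 to 3168) among ZEA cells, a log2 ratio of -0.32 (-0.35 to -0.30). In elongating spermatid-like cells it was at 2854 CPM (2829 to 2879) and 2057 CPM (2000 to 2116), a log2 ratio of -0.47 (-0.52 to -0.43). GSTT4 was lower in both classes as well, at 832 and 699 CPM and at 812 and 671 CPM, with log2 ratios of -0.25 and -0.28. TXNDC8 (-0.15 and -0.04), PRDX5 (-0.05 and 0.16) and PRDX4 (-0.30 and -0.03) had log2 ratios between -0.30 and 0.16. GSTO2 was lower in round spermatid-like cells, at 98.8 and 62.8 CPM (-0.65, -0.85 to -0.46), and at 284 and 264 CPM in elongating ones (-0.11, -0.23 to 0.01).

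The member past 2-fold was TXNDC16, a thioredoxin-domain protein of the secretory pathway, with 13.7 CPM (11.3 to 16.4) in round spermatid-like cells of the control and 48.3 CPM (42.3 to 54.8) in those of the ZEA library, a log2 ratio of 1.82 (1.49 to 2.15). TXNL4A (52.3 and 103 CPM, log2 ratio 0.98) and CAT (8.83 and 15.1 CPM, 0.78, 0.29 to 1.26) were next; CAT met the rule on its highest class level in the ZEA library, where it peaked at 17.6 CPM, and not in the control library, where it peaked at 42.5 CPM. The class was made of different clusters in the libraries: cluster 10 held 613 of 674 control cells, and clusters 20 and 2 held 371 and 322 of 695 ZEA cells. TXNDC16 was at 54.1 CPM in ZEA cluster 20, 29.0 CPM in ZEA cluster 2 and 13.8 CPM in control cluster 10, and in late spermatocyte-like control cells it was at 49.4 CPM. TXNDC16, TXNL4A and CAT were also over 2-fold lower in elongating than in round spermatid-like cells of the ZEA library. The control cells of cluster 2 had 0 UMIs of TXNDC16, so the difference could not be followed within that cluster.

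**Figure D3:**
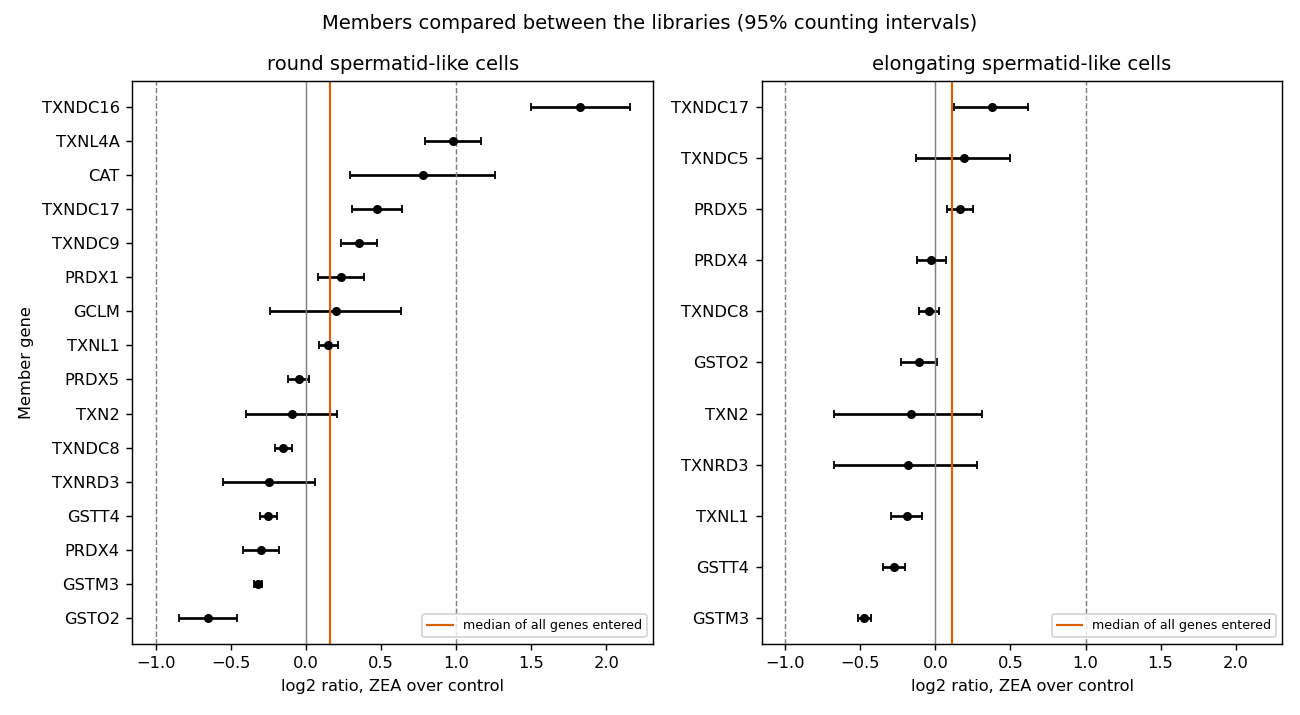
Log2 ratio of ZEA to control for the members that entered, in round spermatid-like cells (left, 16 members) and elongating spermatid-like cells (right, 11 members), with 95% counting intervals; dashed lines mark 2-fold and the orange line the median of all genes that entered. TXNDC16 alone lies past 2-fold, and GSTM3 lies left of 0 in both panels.

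There were 4 clusters with 50 or more cells of both libraries, which allowed the comparison within a cluster. Cluster 0 (1429 and 59 cells) and cluster 3 (275 and 1256) had no name, cluster 2 (59 and 322) was round spermatid-like and cluster 4 (187 and 960) elongating spermatid-like. GSTM3 was lower in the ZEA cells in each, at 3800 and 2129 CPM in cluster 0, 2951 and 2251 in cluster 2, 3376 and 2232 in cluster 3, and 2707 and 2040.1 in cluster 4. In order, the log2 ratios were -0.84, -0.39, -0.60 and -0.41, each interval left out 0, and the medians of all genes were 0.09, 0.04, -0.06 and -0.07. Median depths were close in clusters 0 (1036 and 1004 UMIs) and 3 (614 and 601) and differed in clusters 2 (1225 and 1555.5) and 4 (1147 and 1766).

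Of 37 members, 12 entered in cluster 0, of which 1 was past 2-fold (21.8% of all genes), 11 in cluster 2 with 3 past 2-fold (16.8%), 10 in cluster 3 with 0 (12.9%) and 10 in cluster 4 with 2 (17.2%). Those past 2-fold were TXNRD3 in cluster 0, TXNDC9, TXNDC8 and PRDX1 in cluster 2, and TXNDC5 and TXNRD3 in cluster 4. TXNRD3 in both clusters and TXNDC5 reached detection in 5% of cells only in the library where they were higher, and apart from TXNDC8 each had 1 to 12 UMIs in the library with fewer, so nothing is read from these counts.

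Of 7 members that entered in both classes and all 4 clusters, GSTM3 was the 1 with the same sign in all 6 comparisons. The sets overlap, since clusters 2 and 4 belong to the classes. This count was not made for all genes, so the shared sign is not read as a trait of GSTM3. TXNDC8 was higher in the ZEA cells of each of the 4 clusters, with log2 ratios of 0.80, 1.02, 0.64 and 0.23, and of -0.15 and -0.04 in the round and elongating classes. GSTT4 was at -0.02, 1.00, 0.26 and 0.18 in the 4 clusters and below 0 in both classes. For TXNDC8 and GSTT4 the sign differed between classes and clusters, and the cause was not tested. TXNRD3 was at -0.25 (-0.55 to 0.06) in round and -0.18 (-0.67 to 0.28) in elongating spermatid-like cells, intervals that included 0. In elongating spermatid-like cells TXNRD3 was detected in 16.3% of control and 3.80% of ZEA cells. Its values in that class and in clusters 0 and 4 entered through the control library alone, so no direction is read from them. TXNDC9 was at 0.35 (0.23 to 0.47) in round spermatid-like cells. In clusters 0 and 3 it was at 0.84 and 0.20 with intervals that included 0, and in cluster 2 it rested on 6 control UMIs. In cluster 4, where TXNDC9 did not enter, it was at -0.18 (-1.14 to 0.94). Elongating spermatid markers were summed to 6671 and 7086 CPM in cluster 0, 10093 and 11734 in cluster 2, 11296 and 12772 in cluster 3, and 16815 and 19100.4 in cluster 4, higher in the ZEA cells each time; their part in the GSTM3 and TXNDC8 ratios was not tested.

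**Figure D4:**
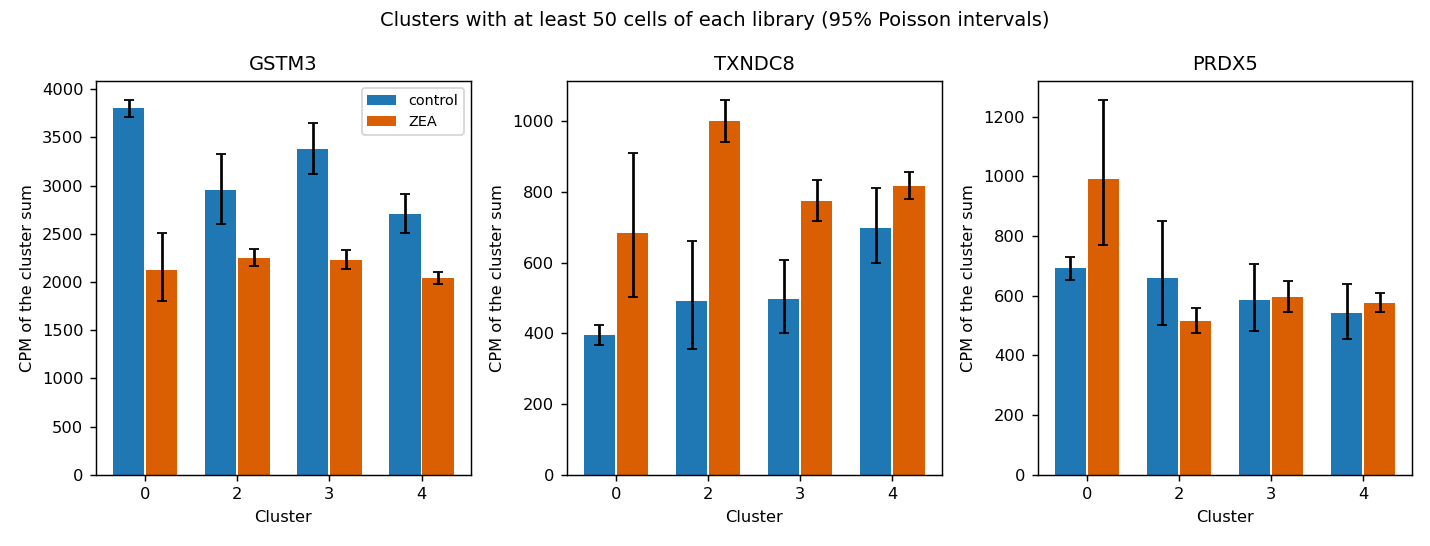
Levels of GSTM3, TXNDC8 and PRDX5 in CPM of the cluster sum, for the control (blue) and ZEA (orange) cells of the 4 clusters with 50 or more cells of both libraries; bars are 95% Poisson intervals and each axis starts at 0. GSTM3 is lower and TXNDC8 higher in the ZEA cells of each cluster, and PRDX5 shows no single direction.

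TXNIP and TXN were higher in ZEA than in control spermatids but did not pass the rule on RNA of other cells. TXNIP was at 0.471 and 26.8 CPM in round and 0.566 and 32.6 CPM in elongating spermatid-like cells, and the ZEA values were under 1% of its endothelial-like level. TXN was at 2.83 and 9.81 CPM in round and 1.47 and 13.1 CPM in elongating spermatid-like cells, beside 404 CPM in endothelial-like cells of the ZEA library. The control library held 5 endothelial-like cells. These differences are therefore not counted among those of spermatids.

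In leukocyte-like cells, the somatic class with at least 20 cells of each library, the 44 control cells were too few for the comparison, and values stand side by side. TXNIP had 543 CPM (386 to 742) among control cells and 769 CPM (647 to 907) among ZEA cells, with intervals that overlapped, and TXN at 237 CPM (138 to 379) and 289 CPM (217 to 378). GSTM3 was at 2241 CPM (1908 to 2615) and 851 CPM (722 to 995). The elongating spermatid markers in these cells summed to 7126 and 4771 CPM, and GSTM3 is the leading member of the spermatids of each library; how much of its level is free RNA was not tested.

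Of the genes of the same pathways outside the rule, more were past 2-fold in elongating than in round spermatid-like cells. Among 4 entering genes that supply NADPH, 5 of glutathione synthesis and turnover, 2 other transferases and glyoxalases, 5 glutaredoxins and related reductases, 7 disulfide isomerases and oxidases, 3 of NRF2 control and 2 of selenoproteins, SELENOK, a selenoprotein of the endoplasmic reticulum, was the 1 past 2-fold, at 34.02 and 73.4 CPM (log2 ratio 1.11), beside 10.8% of all genes. In elongating spermatid-like cells 2, 3, 1, 5, 6, 4 and 2 genes of these lists entered, of which 5 were past 2-fold higher and 1 lower, beside 12.9% of all genes past 2-fold. PDILT, a testis disulfide isomerase-like chaperone, was at 612 and 2235 CPM (1.87, 1.82 to 1.92), the largest difference of any list. NFE2L1, a stress-responsive transcription factor, was at 7.35 and 19.0 CPM (1.37), MTHFD1, a folate enzyme that makes NADPH, at 16.7 and 40.2 CPM (1.27), OPLAH, which returns glutamate from the glutathione cycle, at 43.4 and 93.1 CPM (1.10), and SELENOK at 67.0 and 144 CPM (1.11). ERP27 was past 2-fold lower, at 29.2 and 10.6 CPM (-1.46). It had 25 UMIs in the 1027 ZEA cells, so it entered through the control library alone. HAGH, glyoxalase II, which frees glutathione from its lactate ester, was lower in both classes, at 2641 and 1882 CPM in round and 1165 and 619 CPM in elongating spermatid-like cells (-0.49 and -0.91). PDILT is among the leading genes of cluster 4, which held 960 of 1027 ZEA and 187 of 2041 control elongating spermatid-like cells, and the part of that makeup in its ratio was not tested.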

How the data were processed

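The deposited matrices hold raw UMI counts of genes by barcodes, per the file headers and values; Cell Ranger 5.0.0 wrote the control matrix and Cell Ranger 3.1.0 the ZEA matrix, per the file headers, whereas Cell Ranger 3.1.0, with STAR, is the version in the submitters' processing notes. Genome build: not given in the sources used here, nor is the annotation. Of 27054 genes, 10636 have no symbol. The matrices held 7030 control barcodes (53044981 UMIs) and 8809 ZEA barcodes (22148456); 15 barcode sequences occur in both. Cells with at least 500 UMIs, 200 genes and at most 20% mitochondrial UMIs were kept. Scrublet in scanpy 1.11.5 marked 198 control and 1 ZEA barcodes as doublets, so it has not worked in the ZEA library. Counts scaled to 10000 per cell and log-transformed, 2000 variable genes, 30 components, 15 neighbours and Leiden resolution 1 (igraph 0.11.9) gave the clusters, with no integration. A cluster was named with a mean standardized marker score of at least 1, a lead of 0.2 and 3 enriched markers, unless its 10 leading genes held more markers of another type or over 2 mitochondrial or small RNAs, or its depth was low (times 3 still below its library's median) with no own marker among them; these criteria were set after clusters had been seen.

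Class sums have exact Poisson intervals and ratios exact conditional binomial intervals (scipy 1.17.1); a count of 0 was set to 3 counts in a ratio. In counts simulated from the round spermatid-like sums the intervals held the true ratio for 95.7% of 7798 genes. This checks only how the intervals were calculated. Counts drawn from class sums hold no variation between cells, clusters or animals, so the result does not show how well the intervals cover the real ratios. Libraries were compared in classes with 50 or more cells of both. Members, gene lists and markers were chosen with earlier results of these data known. Members named are the 16 with most UMIs, the leading one of each family, those past 2-fold with at least 100 UMIs, a set list (TXNIP, TXNDC8, TXNRD3, PRDX4, PRDX6, SOD1, SOD3, CAT, GCLC, GCLM), and up to 4 genes of each outside list; others are named for their place in a count. Alternatives changed scaling, weighting, depth, filters, doublets and clustering.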

Additional observations from a re-analysis of the deposited data

How the results depend on the processing

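With 1 library per group, counting error is the error shown and animals are not replicated. No paired analysis was possible because each group has 1 library. Over 13 alternatives the GSTM3 ratio ran from -0.53 to -0.24 in round and from -0.61 to -0.39 in elongating spermatid-like cells; scaled to the median gene it was -0.48 and -0.59. The count of members past 2-fold in round spermatid-like cells, 1 as reported, was 0 with each cell thinned to 500 UMIs, 2 with no minimum of UMIs, 2 in cells of at least 5000 UMIs, and 3 with no rule on free RNA, at Leiden resolution 0.5 or 2, with each unnamed cluster in its best class, or in cluster 2 alone. In elongating spermatid-like cells the count, 0 as reported, was 1 with no rule on free RNA and 2 in cluster 4 alone. The median log2 ratio became 0.25 in round spermatid-like cells with no rule on free RNA. In elongating spermatid-like cells it became -0.22 when scaled to the median gene, 0.0078 with unnamed clusters in their best class and 0.19 in cluster 4 alone. The TXNDC16 ratio was -0.21 in cluster 2 alone, where the control count was 0 and was set to 3, so it gives no direction. Comparisons within cluster 2 and cluster 4 were added after seeing the data. Where a value changed, the cause was not tested, except that the thinned sums and single clusters hold fewer counts. Of the ratios of single members between libraries under these alternatives, 254 stayed within their counting interval and 96 moved out of it; TXNDC8 ran from -0.31 to 1.02 and GSTT4 from -0.41 to 1.00 in round spermatid-like cells, so neither kept its sign. Ratios between germ stages stayed within their counting interval in 332 cases and moved out of it in 104. Class levels stayed in 180 cases and moved in 46. Levels in cells of at least 5000 UMIs could not be had for 12 class levels of Sertoli-like, leukocyte-like and interstitial classes.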

Other observations

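Levels of some members in a pair of small clusters without a name stand here as values. Cluster 24 of the ZEA library (168 cells and 0 control cells), whose leading genes include INSL3, a hormone of Leydig cells, had TXN at 701 CPM (644 to 761), the highest level of any class of at least 20 cells. It also had PRDX5 at 619 CPM, GSTA4 at 219 CPM (188 to 254), PRDX2 at 228 CPM and PRDX6 at 206 CPM (176 to 240), and its TXNIP, at 483 CPM, was below that of 5 of the 6 somatic classes. GSTA1 was at 46.5 CPM in this cluster. The next highest ZEA levels were TXN at 613, GSTA4 at 175 and PRDX6 at 77.3 CPM, all in stromal fibroblast-like cells. That of PRDX2 was 212 CPM in perivascular-like cells, and PRDX5 was higher in ZEA clusters 0 and 19, at 992 and 639 CPM.

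Cluster 14 of the control library (35 cells) was led by TKTL1 and TEX11, genes of early germ cells. PRDX4 was at 562 CPM (476 to 659) there, above the 71.5 CPM of late spermatocyte-like cells and the 438 CPM of elongating spermatid-like cells. Stromal fibroblast-like cells of the ZEA library had PRDX4 at 543 CPM. The values that follow are again of cluster 14. Its GCLC, at 48.1 CPM (25.6 to 82.2), was the highest of any control class of at least 20 cells, and TXNRD1 was at 126 CPM (87.1 to 176), close to the 120 CPM (107 to 135) of the PIWIL1-led cluster 13. GSTM3 was at 1679.8 CPM (1529 to 1842) in cluster 14, below every named germ class of the control library. The 35 cells carry 270274 UMIs, so their levels rest on few counts.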
